A study of Mus musculus with 15 samples.

Results

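The genes of the NF-κB subunits and their inhibitors, together with *Tnf*, were followed across bone marrow-derived macrophages (BMDMs) polarized with IL-4 or IL-13, either alone or together with IL-6. The members were 10 genes chosen by name, out of 53465 identifiers in the count table, and all 10 passed the filter on low counts. They comprise the subunit genes *Nfkb1*, *Nfkb2*, *Rel*, *Rela* and *Relb*, the inhibitor genes *Nfkbia*, *Nfkbie*, *Nfkbiz* and *Tnfaip3*, and the cytokine gene *Tnf*. Mouse bone marrow cells were grown into BMDMs for 7 days with M-CSF at 20 ng/ml in medium containing 10% FBS, and all groups share this protocol. Whether the groups came from the same culture is not given in the sources used here. Control BMDMs then received no polarizing cytokine. The other BMDMs were treated for 24 h. The IL-4 group received 10 ng/ml of IL-4 and the IL-13 group 40 ng/ml of IL-13, and in the IL-4/IL-6 and IL-13/IL-6 groups 40 ng/ml of IL-6 was added to these doses. Each of these 5 groups had 3 RNAseq libraries. The study's methods give an age of 8 to 12 weeks for the mice, and the strain behind each library is not reported here. None of the groups received IL-6 alone, so every effect of IL-6 below was measured on top of IL-4 or IL-13.

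NF-κB is a family of dimeric transcription factors built from RelA, RelB, c-Rel and the p50 and p52 proteins, which are cut from the precursors encoded by *Nfkb1* and *Nfkb2*. In resting macrophages IκB proteins such as IκBα hold the dimers in the cytoplasm, and receptor signals that activate the IκB kinases release them. Several IκB genes and *Tnfaip3* are themselves NF-κB targets and form negative feedback loops, and *Tnf* is a classical inflammatory target in macrophages.

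Start-site windows of the members are shown because the inhibitor genes among them are known feedback targets. The windows, taken from RefSeq on GRCm38.p6, cover 250 bases before to 50 bases after a transcription start, and 7 of the 10 members had at least 1 (*Nfkb1*, *Relb* and *Nfkbiz* had none). The κB consensus, searched on both strands, was found in the windows of 5 members, and it was found in 4.51% of all 32851 windows and in 5.14% of the 27025 genes that have them. For 1 window per member, the matches that lie before the start follow, read on the strand of the gene, with the matches in capitals and overlapping matches merged. Each stretch runs from 15 bases before its first match to at most 15 bases after its last, with the bases between matches included and no base after the start shown. They lie at chr19:46304683-46304736 (+) for *Nfkb2*, chr11:23771036-23771076 (-) for *Rel*, chr12:55492652-55492691 (-) for *Nfkbia*, chr17:45555579-45555618 (+) for *Nfkbie* and chr10:19015411-19015550 (-) for *Tnfaip3*. *Nfkb2* had further windows for other start sites, which also held matches, 1 of them at bases 10 to 19 after a start, and these are not printed. *Tnfaip3* had a further window for another start site, which held no κB match.
Nfkb2: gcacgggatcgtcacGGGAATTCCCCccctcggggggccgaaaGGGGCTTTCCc
Rel: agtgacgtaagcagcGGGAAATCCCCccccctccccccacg
Nfkbia: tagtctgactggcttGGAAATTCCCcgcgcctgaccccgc
Nfkbie: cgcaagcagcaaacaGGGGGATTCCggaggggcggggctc
Tnfaip3: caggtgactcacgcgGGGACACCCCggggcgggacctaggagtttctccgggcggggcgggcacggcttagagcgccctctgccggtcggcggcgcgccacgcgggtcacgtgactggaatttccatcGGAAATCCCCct
The windows of *Rela* and *Tnf* held no match, which says only that these letters are not in those 300 bases. The STAT-type motif of TTC and GAA with 3 free bases between them, searched on both strands, was in 1 member's windows (*Nfkb2*) and in 8.3% of all windows. The form with 4 free bases was likewise in 1 (*Tnfaip3*) and in 6.95% of all windows. A match is a description of the sequence, and binding was not measured.

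The libraries held between 17001352 and 18918686 counted reads. Replicates varied least in the control and IL-4 groups (biological coefficients of variation of 4.49% and 4.54%) and more with IL-13/IL-6 (7.39%), IL-13 (10.9%) and IL-4/IL-6 (14.9%), and the fit of 15 libraries used 1 pooled spread per gene, so its standard errors do not widen for the last 3 groups. In 2 groups 1 library stood apart by the mean chi-square of the counts of a pair of libraries over genes. This was 25.1 and 44.3 for the pairs with IL-4/IL-6 replicate 2 against 7.24 for the remaining pair, and 21.3 and 16.4 for those with IL-13 replicate 1 against 3.83. Without IL-4/IL-6 replicate 2 the number of members called with IL-6 on IL-4 went from 8 to 7. Over all genes 5502 of 14276 tested were then called, against 5488 of 13938 in the full fit. Without IL-13 replicate 1, IL-6 on IL-13 gained *Rel* (adjusted p = 0.0055, edgeR) and lost *Tnf* (adjusted p = 0.089). Over all genes 3553 of 14286 tested were then called, against 3563 of 13938. Markers of macrophages summed to between 4617 and 5642 normalized CPM (counts scaled to a common library size with TMM factors) in all libraries, and all 6 were present in each group. Single markers did not all follow the sum. *Mertk* had means of 142.5 in control and 8.27 to 17.9 in the cytokine groups, *Fcgr1* went from 101 with IL-4 to 217 with IL-4/IL-6 and from 188 with IL-13 to 479 with IL-13/IL-6, and *Adgre1* ranged from 844 in control to 1454 with IL-13/IL-6. Markers of granulocytes and their precursors summed to between 408.2 and 484.5 normalized CPM in control libraries, with 7 of 8 markers at a mean of at least 1, and to between 1.597 and 2.57 in the cytokine groups. B cell markers (10.8 to 12.3 against at most 1.66), basophil and mast cell markers (21.7 to 25.8 against at most 8.55) and stromal markers (15.96 to 20.2 against at most 0.23) were also higher in control libraries, while T cell markers reached at most 0.505. Markers of dendritic cells summed to between 292 and 329 in control and 311 and 354 in IL-4, but to 56.8 to 72.3 with IL-4/IL-6, 192 to 212 with IL-13 alone and 56.7 to 64.6 with IL-13/IL-6. This sum was mostly *Itgax* (means of 289 in control, 332 with IL-4 and 52.0 with IL-4/IL-6). Of the other markers on the list, *Flt3* went from a mean of 6.38 in control to 0 with IL-4 and *Ccr7* from 8.42 to 0.018, while *Cd209a* went from 0.055 with IL-4 to 11.3 with IL-4/IL-6. The part of these cells in the differences from control, and of the dendritic cell markers in the differences with IL-6, was not tested. In bulk RNA, fewer cells that express a gene and less RNA per cell cannot be told apart. The study's supplement calls the libraries of the IL-4 experiment biological replicates, and whether they came from separate animals is not given in the sources used here.

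The first comparisons ask which members differ between polarized and control BMDMs. A member was called when its adjusted p was under 0.05 in the quasi-likelihood F-test of edgeR, with Benjamini-Hochberg correction over 13938 genes. After IL-4, 1 member was higher (*Nfkb1*) and 6 were lower than in control (*Nfkb2*, *Rel*, *Relb*, *Nfkbia*, *Nfkbie*, *Nfkbiz*), while 68.0% of all tested genes were called (32.1% higher, 35.9% lower), so that the number of members called was close to the background. After IL-13, *Tnf* was higher and the same 6 members were lower, against a background of 60.1% (29.0% higher, 31.1% lower). IL-4/IL-6 BMDMs had 2 members above control (*Nfkb1*, *Tnfaip3*) and 7 below it (all others except *Rela*), against 72.9% of all tested genes (35.4% higher, 37.5% lower). IL-13/IL-6 BMDMs had 1 member above control (*Tnf*) and 5 below it (*Rel*, *Relb*, *Nfkbia*, *Nfkbie*, *Nfkbiz*), against 64.0% (31.9% higher, 32.1% lower), with 0 members above control under upper-quartile factors or library totals alone, where 4086 and 3780 of all tested genes were higher and 4865 and 5140 lower. These 4 comparisons share their control libraries. The median log2 fold change of the 10 members over control was -0.58 with IL-4 and -0.30 with IL-13, beside -0.05 and -0.02 over all tested genes.

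**Figure D1:**
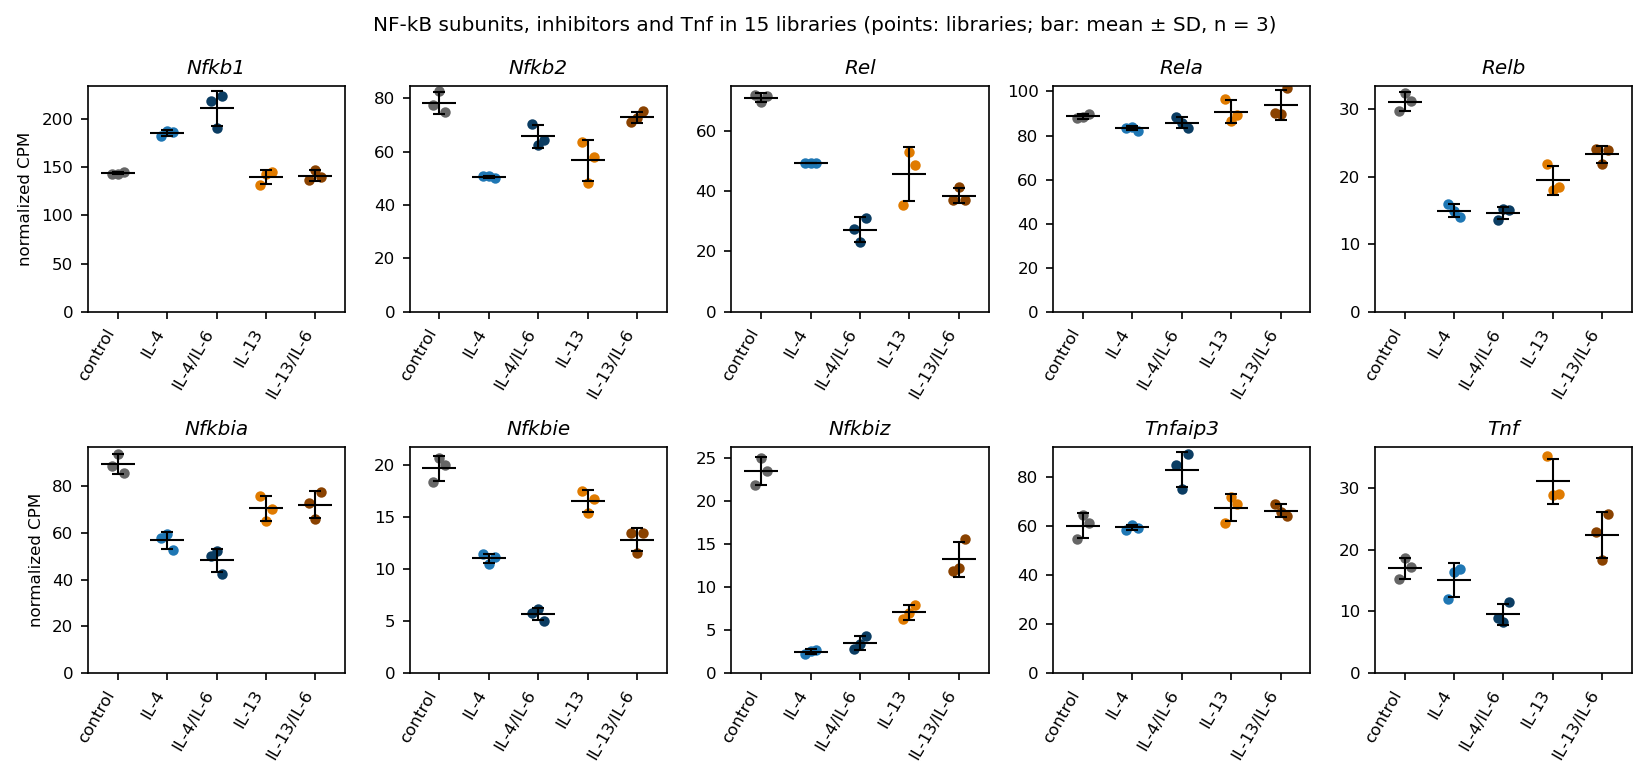
Normalized CPM (vertical axes, each from 0) of the 10 genes in the 15 libraries by group, with points for libraries and bars for the mean ± SD of 3 replicates. *Nfkbiz* ranges from a mean of 23.5 in control to 2.49 in IL-4, while *Rela* stays between means of 83.3 and 93.9.

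The second set of comparisons asks what the co-addition of IL-6 did. IL-4/IL-6 BMDMs had 4 members above IL-4 BMDMs (*Nfkb1*, *Nfkb2*, *Nfkbiz*, *Tnfaip3*) and 4 below (*Rel*, *Nfkbia*, *Nfkbie*, *Tnf*), whereas 39.4% of all tested genes were called (20.7% higher, 18.7% lower). With upper-quartile factors or library totals in place of TMM factors, which both lower the fold changes of this comparison, 2 members were higher and 4 lower. The background moved with them, from 2885 genes higher and 2603 lower to 2073 and 3245 with upper-quartile factors and to 2008 and 3281 with library totals. IL-13/IL-6 BMDMs had 3 members above IL-13 BMDMs (*Nfkb2*, *Relb*, *Nfkbiz*) and 2 below (*Nfkbie*, *Tnf*), against 25.6% of all tested genes (12.1% higher, 13.5% lower), and 2 higher and 2 lower with either of these scalings, under which 1449 and 1268 of all tested genes were higher and 2135 and 2325 lower. Between the 2 polarizing cytokines, IL-4 BMDMs had *Nfkb1* above and 5 members below IL-13 BMDMs (*Relb*, *Nfkbia*, *Nfkbie*, *Nfkbiz*, *Tnf*), against a background of 12.8% (5.16% higher, 7.61% lower). In the presence of IL-6 the IL-4 group had 2 members above the IL-13 group (*Nfkb1*, *Tnfaip3*) and 6 below (*Rel*, *Relb*, *Nfkbia*, *Nfkbie*, *Nfkbiz*, *Tnf*), against 31.3% (15.8% higher, 15.5% lower). Neither of these last comparisons involves the control libraries. The sum of dendritic cell markers given above, mostly *Itgax*, differed between the IL-4 and IL-13 groups. Basophil and mast cell markers summed to 3.55 to 4.44 normalized CPM with IL-4 and 4.55 to 8.55 with IL-13. That sum was nearly all *Kit* (means of 3.75 and 6.87), while *Mcpt8*, *Cpa3*, *Fcer1a* and *Prss34* had means of at most 0.088 in both groups. The part of these cells was not tested.

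**Figure D2:**
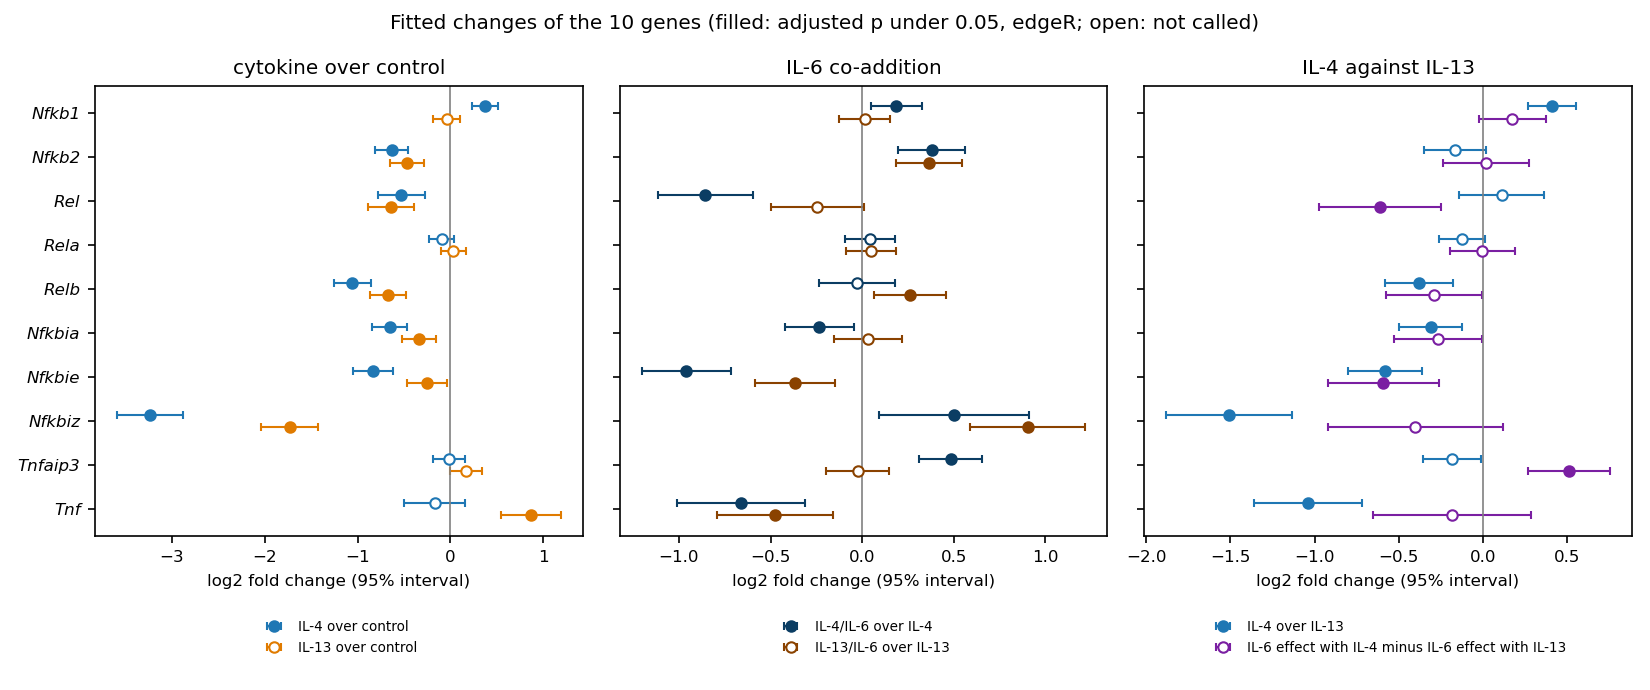
Log2 fold changes (horizontal axes) of the 10 genes with 95% intervals from the fit of 15 libraries, for cytokine over control (left), co-addition of IL-6 (middle) and IL-4 over IL-13 with the difference between the IL-6 effects (right). Filled points have an adjusted p under 0.05; *Nfkbiz* at -3.24 after IL-4 lies farthest from 0, and the intervals of *Rela* include 0 in all 6 comparisons.

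Among the subunits, *Nfkb1* (chr3:135584655-135691547, minus strand, GRCm38), which encodes p105 and p50, was high with IL-4 and not with IL-13. Its normalized CPM were 143, 144 and 146 in the control libraries, and 183, 188 and 187 after IL-4. They were 219, 191 and 224 with IL-4/IL-6, 132, 143 and 145 in IL-13, and 136, 147 and 140 in IL-13/IL-6 BMDMs. All 6 libraries with IL-4 lay above all other 9, and the libraries of the control, IL-13 and IL-13/IL-6 groups overlapped. *Nfkb1* rose by a log2 fold change of 0.37 after IL-4 (SE 0.066, adjusted p = 0.00011, edgeR), and it was 0.41 higher in IL-4 than in IL-13 BMDMs (SE 0.066, adjusted p = 0.00038). After IL-13 the log2 difference from control was -0.04 (95% interval -0.18 to 0.10). The further rise with IL-6 on IL-4, 0.19 (SE 0.066, adjusted p = 0.033), was not called in 18 of 23 alternative settings, among them each fit without a control, IL-4, IL-13 or IL-13/IL-6 library.

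*Nfkb2* (chr19:46304320-46312385, plus strand), which encodes p100 and p52 of the non-canonical branch, fell with both polarizing cytokines and was higher again with IL-6. Its normalized CPM were 77.3, 82.8 and 74.9 in control, 50.8, 50.7 and 49.99 with IL-4, and 70.5, 62.5 and 64.2 with IL-4/IL-6. In the other arm they were 63.7, 48.2 and 58.1 with IL-13 and 71.1, 72.5 and 75.2 with IL-13/IL-6. In both arms every library with IL-6 lay above the libraries of the same cytokine without it, and the IL-13/IL-6 libraries overlapped with control. The log2 fold change over control was -0.63 after IL-4 (SE 0.086, adjusted p = 5.3e-06) and -0.47 after IL-13 (SE 0.085, adjusted p = 0.00016). Co-addition of IL-6 raised it by 0.38 on IL-4 (SE 0.086, adjusted p = 0.0018) and by 0.36 on IL-13 (SE 0.086, adjusted p = 0.0040), and both calls held in all 23 alternatives. In IL-4/IL-6 BMDMs it was 0.25 below control (adjusted p = 0.013), a call lost without control replicate 2 (0.063), without IL-4/IL-6 replicate 2 (0.070) or without a filter on low counts (0.063, adjusted p in each case). *Psd* lies in the same place on the opposite strand and had a summed count of 7.18% of that of *Nfkb2*, and whether the counting used strand is not given in the sources used here.

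*Rel* (chr11:23736847-23770970, minus strand) encodes c-Rel, a subunit prominent in immune cells. It was highest in control BMDMs, with 72.1, 69.5 and 71.8 normalized CPM, followed by 49.4, 49.3 and 49.4 after IL-4. The IL-4/IL-6 libraries held the lowest values, 27.4, 23.2 and 31.2. Those of IL-13 were 35.5, 52.9 and 48.8, with replicate 1 apart from the others, and those of IL-13/IL-6 were 37.3, 41.5 and 36.9. Control lay above every cytokine library and IL-4/IL-6 below every other library, while IL-13 overlapped with IL-4 and with IL-13/IL-6. *Rel* fell after IL-4 by 0.53 on the log2 scale (SE 0.12, adjusted p = 0.00081), and after IL-13 by 0.64 (SE 0.12, adjusted p = 0.00018). With IL-6 on IL-4 it fell by a further 0.86 (SE 0.12, adjusted p = 2.2e-05). With IL-6 on IL-13 the difference was -0.25 (95% interval -0.50 to 0.01, adjusted p = 0.16), and without IL-13 replicate 1 it was -0.41 with an adjusted p of 0.0055. *Rel* in IL-4/IL-6 BMDMs was 1.38 below control (SE 0.12, adjusted p = 2.1e-08).

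*Rela* (chr19:5637483-5648130, plus strand), the gene of the RelA (p65) subunit of the canonical dimer, was not called in any comparison. With library totals alone it was called lower in IL-4/IL-6 BMDMs than in control (-0.19, adjusted p = 0.013) and than in IL-13/IL-6 BMDMs (-0.18, adjusted p = 0.047). Its normalized CPM ranged from 88.0 to 90.0 in control, 82.2 to 84.0 in IL-4, 83.4 to 88.4 with IL-4/IL-6, 86.5 to 96.7 in IL-13 and 89.8 to 101.5 in IL-13/IL-6 libraries. The highest and the lowest group mean differed 1.13-fold. Over control the log2 fold changes were -0.09 with IL-4 (95% interval -0.23 to 0.04) and 0.03 with IL-13 (95% interval -0.10 to 0.17). The sign of the difference that IL-6 made on IL-4, 0.04, turned negative with upper-quartile factors or library totals.

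*Relb* (chr7:19606217-19629438, minus strand) encodes RelB, the partner of p52. Its normalized CPM were 29.6, 32.4 and 31.1 in control, 15.9, 14.9 and 13.97 with IL-4, and 13.6, 15.3 and 15.03 with IL-4/IL-6. They were 21.9, 18.0 and 18.4 in IL-13 and 24.1, 21.9 and 23.9 in IL-13/IL-6 libraries. The groups were ordered from control over IL-13/IL-6 and IL-13 to the IL-4 groups, which overlapped with each other, and the lowest IL-13/IL-6 library lay barely above the highest IL-13 library. *Relb* fell by 1.06 after IL-4 (SE 0.094, adjusted p = 3.0e-08) and by 0.68 after IL-13 (SE 0.092, adjusted p = 7.0e-06) on the log2 scale. In IL-4 it was 0.38 lower than in IL-13 BMDMs (SE 0.095, adjusted p = 0.013), a call lost without IL-4 replicate 2 (adjusted p = 0.052) or IL-4 replicate 3 (adjusted p = 0.080). The addition of IL-6 to IL-4 gave -0.03 (95% interval -0.23 to 0.18). On IL-13 it gave 0.26 (SE 0.093, adjusted p = 0.048), but this call was lost in 19 of 23 alternatives.

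Per length, on the deposited FPKM scale, *Rela* was the most abundant of the 5 subunit mRNAs in every group, with 38.0% ± 0.72 (SD, n = 3) of their summed FPKM in control and 45.5% ± 1.1 in IL-13 BMDMs. The FPKM imply lengths of 12061 bases for *Nfkb1*, 7466 for *Rel* and 2716 for *Rela*. By reads, *Nfkb1* was above *Rela* in every library (2744 against 1688 in control replicate 1). The ranking, the shares and the levels of FPKM ratios between genes therefore depend on the lengths used. *Rel* accounted for 11.1% ± 0.36 in control, 9.20% ± 0.090 with IL-4, and 4.76% ± 0.62 with IL-4/IL-6. *Relb* accounted for 9.30% ± 0.30, 5.34% ± 0.31 and 4.93% ± 0.48 in the same groups. The share of *Nfkb1* went from 13.9% ± 0.23 in control to 21.4% ± 0.39 with IL-4 and 22.9% ± 1.3 with IL-4/IL-6, and was 15.8% ± 1.4 in IL-13 BMDMs. The ratio of *Rel* to *Nfkb1* FPKM was 0.798 ± 0.016 in control, 0.429 ± 0.0071 in IL-4, 0.208 ± 0.015 with IL-4/IL-6, 0.526 ± 0.082 in IL-13 and 0.441 ± 0.014 in IL-13/IL-6 BMDMs. The IL-4/IL-6 libraries, at 0.196 to 0.225, lay apart from all others on this ratio.

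**Figure D3:**
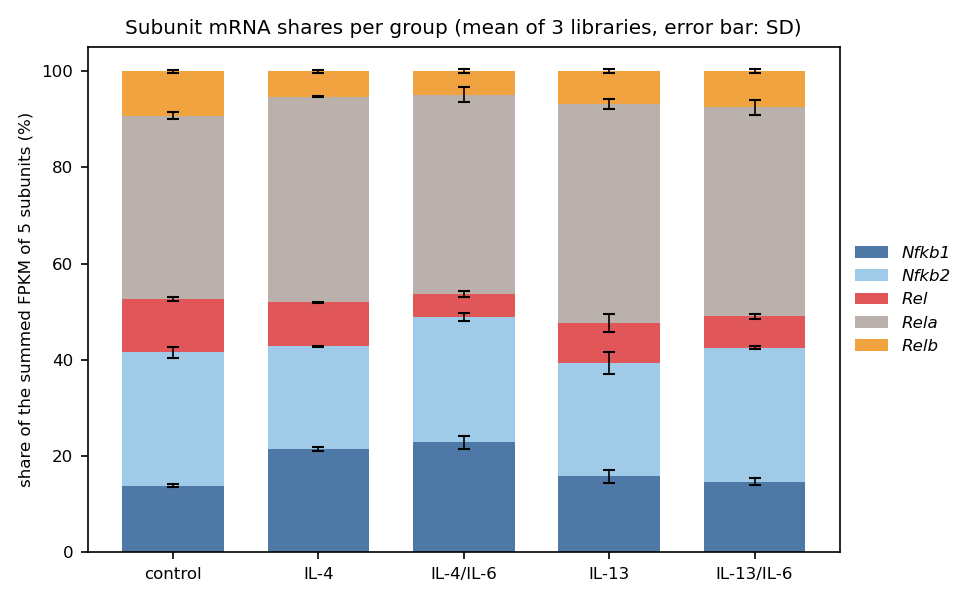
Share of each subunit mRNA in the summed FPKM of the 5 subunit genes (vertical axis, %), as means of 3 libraries with SD, by group. *Rel* narrows from 11.1% in control to 4.76% in IL-4/IL-6, and *Nfkb1* widens from 13.9% to 22.9%.

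Of the inhibitors, *Nfkbia* (chr12:55489410-55492647, minus strand) encodes IκBα, which retains dimers in the cytoplasm and ends the canonical response. Its normalized CPM were 88.3, 93.8 and 85.6 in control, 57.8, 59.6 and 52.7 with IL-4, and 50.1, 52.0 and 42.4 with IL-4/IL-6. They were 75.8, 64.9 and 70.3 in IL-13 and 72.6, 66.0 and 77.4 in IL-13/IL-6 libraries. Control lay highest and both IL-4 groups lowest, and the IL-13 groups overlapped with each other. *Nfkbia* fell by 0.65 after IL-4 (SE 0.088, adjusted p = 4.7e-06) and by 0.34 after IL-13 (SE 0.087, adjusted p = 0.0027). It was 0.31 lower in IL-4 than in IL-13 BMDMs (SE 0.088, adjusted p = 0.027), with adjusted p-values of 0.061, 0.13, 0.066 and 0.076 without IL-4 replicate 1, IL-4 replicate 3, IL-13 replicate 1 and IL-13 replicate 3, respectively. IL-6 on IL-4 lowered it by a further 0.24 (SE 0.089, adjusted p = 0.045). That call was lost in 5 of 23 alternatives, among them the fits without IL-4 replicate 1 (0.086), IL-4 replicate 2 (0.11) or IL-4/IL-6 replicate 3 (0.15, adjusted p in each case) and the compared groups alone (adjusted p = 0.051). IL-6 on IL-13 gave 0.03 (95% interval -0.15 to 0.22). The ratio of *Nfkbia* to *Rela* FPKM was 1.70 ± 0.094 (SD, n = 3) in control, 1.15 ± 0.059 in IL-4, 0.945 ± 0.082 with IL-4/IL-6, 1.31 ± 0.035 in IL-13 and 1.29 ± 0.059 in IL-13/IL-6 BMDMs.

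*Nfkbie* (chr17:45555703-45563169, plus strand), the gene of IκBε, had the most distinct low level in IL-4/IL-6 BMDMs. The normalized CPM were 18.3, 20.7 and 20.0 in control, 17.5, 15.4 and 16.7 in IL-13, and 13.4, 11.5 and 13.5 in IL-13/IL-6 libraries. They were 11.4, 10.5 and 11.1 with IL-4, and 5.78, 6.19 and 5.01 with IL-4/IL-6. No neighbors in this order of 5 groups overlapped, and the highest IL-4/IL-6 library lay well below the lowest IL-4 library. IL-4 lowered *Nfkbie* by 0.83 (SE 0.10, adjusted p = 2.0e-06), and IL-6 on top of IL-4 by a further 0.96 (SE 0.12, adjusted p = 2.8e-06), which left it 1.80 below control (SE 0.11, adjusted p = 1.9e-10). IL-13 lowered it by 0.25 (SE 0.10, adjusted p = 0.041), a call lost in 15 of 23 alternatives. IL-6 on IL-13 lowered it by 0.37 (SE 0.10, adjusted p = 0.013), with an adjusted p of 0.069 without IL-13/IL-6 replicate 2 and 0.059 without a filter on low counts.

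*Nfkbiz* (chr16:55811375-55838899, minus strand) encodes IκBζ, a nuclear IκB protein that acts as a cofactor at secondary response genes. It spanned the widest range of the 10 members, 9.45-fold between group means. The normalized CPM were 21.9, 25.1 and 23.6 in control (420 to 453 reads) and 2.19, 2.55 and 2.73 in IL-4 (41 to 50 reads). The IL-4/IL-6 libraries had 2.78, 3.42 and 4.38, the IL-13 libraries 6.27, 7.04 and 7.93, and the IL-13/IL-6 libraries 11.9, 12.2 and 15.6. The 5 groups did not overlap, with control highest and IL-4 lowest. *Nfkbiz* fell by 3.24 on the log2 scale after IL-4 (SE 0.17, adjusted p = 2.7e-11) and by 1.73 after IL-13 (SE 0.15, adjusted p = 2.2e-08), and it was 1.51 lower with IL-4 than with IL-13 (SE 0.18, adjusted p = 1.3e-05). IL-6 raised it by 0.90 on IL-13 (SE 0.15, adjusted p = 0.00017). On IL-4 the rise of 0.50 had an adjusted p of 0.0496 (SE 0.19) and was lost in 18 of 23 alternatives, where the adjusted p reached 0.27.

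*Tnfaip3* (chr10:19000910-19015657, minus strand) encodes A20, a ubiquitin-editing enzyme that shuts off signals upstream of the IκB kinases. Its normalized CPM were 54.7, 64.6 and 61.4 in control, 58.7, 60.5 and 59.4 with IL-4, and 84.9, 75.3 and 89.4 with IL-4/IL-6. They were 61.5, 72.1 and 69.2 in IL-13 and 69.2, 66.0 and 64.1 in IL-13/IL-6 libraries. The IL-4/IL-6 libraries were above all others, and the remaining 4 groups overlapped with their neighbors in level. *Tnfaip3* was 0.48 higher with IL-6 on IL-4 than with IL-4 alone (SE 0.082, adjusted p = 0.00013) and 0.47 higher than in control BMDMs (SE 0.082, adjusted p = 6.9e-05), and both calls held in all alternatives. After IL-4 the difference from control was -0.02 (95% interval -0.19 to 0.16). After IL-13 it was 0.17 (95% interval -0.01 to 0.34, adjusted p = 0.089), which was called without a filter on low counts (0.042) and without control replicate 2 (0.045), IL-4/IL-6 replicate 2 (0.017), IL-13 replicate 1 (0.015) or IL-13/IL-6 replicate 1 (0.048, adjusted p in each case).

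*Tnf* (chr17:35199381-35202007, minus strand), the gene of the ligand, moved apart in the IL-4 and IL-13 arms. Control libraries had 15.2, 18.6 and 17.2 normalized CPM, IL-4 libraries 11.99, 16.4 and 16.9, and IL-4/IL-6 libraries 8.85, 8.31 and 11.5. IL-13 libraries had 35.1, 28.9 and 29.0 and IL-13/IL-6 libraries 22.9, 18.3 and 25.7. IL-13 lay above every other library and IL-4/IL-6 below every other library, while control overlapped with IL-4 and with IL-13/IL-6. *Tnf* rose after IL-13 by 0.87 (SE 0.15, adjusted p = 9.8e-05), whereas after IL-4 the difference from control was -0.17 (95% interval -0.50 to 0.16, adjusted p = 0.35). The direct comparison put IL-4 1.04 below IL-13 (SE 0.15, adjusted p = 0.00014). Co-addition of IL-6 lowered *Tnf* by 0.66 on IL-4 (SE 0.16, adjusted p = 0.0038) and by 0.48 on IL-13 (SE 0.15, adjusted p = 0.025). The latter call was lost without IL-13 replicate 1 (0.089), IL-13/IL-6 replicate 1 (0.051) or IL-13/IL-6 replicate 2 (0.13, adjusted p in each case). IL-13/IL-6 BMDMs kept *Tnf* 0.39 above control (SE 0.15, adjusted p = 0.033), which 6 of 23 alternatives did not call, with adjusted p-values up to 0.13.

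Whether the IL-6 effect depended on the polarizing cytokine was tested with an interaction contrast, the IL-6 effect with IL-4 minus that with IL-13. It was called for 3 members (1 higher, 2 lower), against 7.64% of all tested genes (3.22% higher, 4.42% lower), and for 1 higher and 1 lower with library totals alone, where 362 of all tested genes were higher and 668 lower. *Rel* fell more with IL-4 (-0.86 against -0.25, difference -0.61, SE 0.17, adjusted p = 0.037), and so did *Nfkbie* (-0.96 against -0.37, difference -0.59, SE 0.15, adjusted p = 0.024). *Tnfaip3* rose with IL-4 and not with IL-13 (0.48 against -0.03, difference 0.51, SE 0.12, adjusted p = 0.0097). The call for *Tnfaip3* held in all 23 alternatives. That for *Rel* was lost in 9, with adjusted p-values up to 0.091, and that for *Nfkbie* in 5, with adjusted p-values up to 0.062. For *Tnf* the difference between the IL-6 effects was -0.18 (95% interval -0.65 to 0.28), for *Nfkbiz* -0.40 (95% interval -0.92 to 0.12) and for *Nfkb2* 0.02 (95% interval -0.24 to 0.27).

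Other genes of the pathway were read from 5 lists of 87 genes, of which 81 passed the filter on low counts (*Csf2*, *Cxcl1*, *Il23a*, *Il6*, *Lta* and *Nos2* did not). After IL-4, 18 were higher and 44 lower than in control (background 32.1% higher and 35.9% lower), and after IL-13 16 were higher and 42 lower (29.0% and 31.1%). With IL-6 on IL-4, 22 were higher and 22 lower (20.7% and 18.7%), and with IL-6 on IL-13, 22 were higher and 13 lower (12.1% and 13.5%). IL-4 over IL-13 gave 7 higher and 21 lower (5.16% and 7.61%), and the same comparison with IL-6 gave 7 higher and 27 lower (15.8% and 15.5%). The counts of the single lists below stand beside the same backgrounds.

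**Figure D4:**
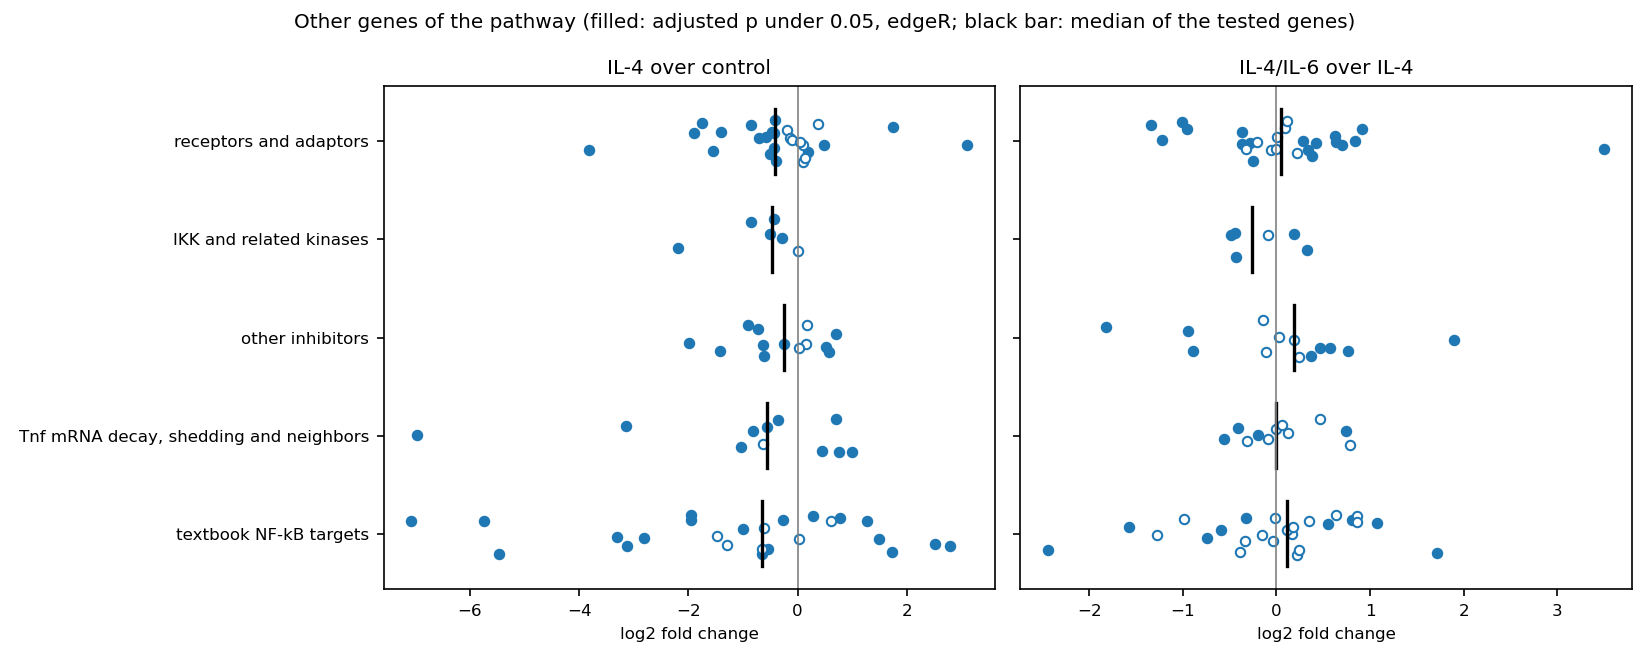
Log2 fold changes (horizontal axes) of the 81 tested genes of the 5 pathway lists for IL-4 over control (left) and IL-4/IL-6 over IL-4 (right), 1 point per gene, filled where the adjusted p is under 0.05, with a bar at the median of each list. The medians of all lists lie below 0 after IL-4, from -0.64 for the targets to -0.26 for the other inhibitors.

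Of the 26 receptors and adaptors, 14 were lower and 4 higher after IL-4 (median log2 fold change -0.41), and 10 were higher and 8 lower with IL-6 on IL-4. *Tlr2*, a receptor for bacterial lipoproteins, was at 134 to 151 normalized CPM in control and 8.94 to 10.96 in IL-4, a fall of 3.82 on the log2 scale (SE 0.11, adjusted p = 3.2e-14), and IL-6 lowered it by 1.34 more (SE 0.14, adjusted p = 4.1e-07). *Tnfrsf1b*, the gene of TNF receptor 2, fell from 699 to 771 in control to 251 to 254 with IL-4, and 118 to 131 with IL-4/IL-6. *Il1r1*, the signaling IL-1 receptor, moved the other way, from 0.469 to 0.720 in control to 4.20 to 5.70 with IL-4, and 49.5 to 60.5 with IL-4/IL-6, a rise of 3.50 with IL-6 (SE 0.14, adjusted p = 2.0e-12). The kinase genes *Irak2* and *Irak3*, the latter a brake on Toll-like receptor signals, fell after IL-4 by 1.40 and 1.75, and with IL-6 by a further 1.22 and 0.37. *Birc3*, a ubiquitin ligase of the TNF receptor complex, fell by 1.90 after IL-4 and differed by 0.11 with IL-6 (adjusted p = 0.32).

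Of the 6 genes of the IκB kinases and related kinases, 5 were lower after IL-4 and 5 after IL-13, and none was higher, while 68.0% and 60.1% of all tested genes were called in these comparisons (35.9% and 31.1% lower), so that counts in a list of 6 say little. *Ikbke* (IKKε) fell by 2.197 after IL-4 (SE 0.084, adjusted p = 6.5e-13), from 239 to 269 normalized CPM in control to 52.4 to 59.7, and by 0.43 more with IL-6. *Map3k14*, which encodes the kinase NIK that starts the non-canonical branch, fell by 0.85 and then 0.44. *Ikbkb* (IKKβ) and *Tbk1* fell by 0.51 and 0.43 after IL-4. *Ikbkg*, the regulatory subunit NEMO, differed by 0.0049 after IL-4 and fell by 0.49 with IL-6 on IL-4. *Chuk* (IKKα) was 0.33 higher with IL-6 on IL-4.

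Among 13 other inhibitors, 3 were higher and 7 lower after IL-4, and 5 higher and 3 lower with IL-6 on IL-4. *Bcl3*, a nuclear IκB protein that binds p50 and p52, was at 19.02 to 19.5 normalized CPM in control, 4.04 to 5.78 with IL-4, and 15.6 to 19.6 with IL-4/IL-6. IL-4 lowered it by 1.99 and IL-6 raised it by 1.90 on IL-4 (SE 0.16, adjusted p = 2.5e-08) and by 1.77 on IL-13 (SE 0.15, adjusted p = 7.2e-08). *Nfkbid*, the gene of the nuclear protein IκBNS, was higher after IL-4 by 0.70 and fell by 1.82 with IL-6 (SE 0.11, adjusted p = 5.5e-10). *Tnip1*, an A20-binding inhibitor, fell by 1.42 after IL-4 and by a further 0.89 with IL-6. *Tax1bp1* and *Itch*, which work with A20, fell by 0.73 and 0.91 after IL-4, and IL-6 raised *Tax1bp1* by 0.37 while *Itch* gave -0.15 (adjusted p = 0.19). *Pdlim2*, a ligase for nuclear RelA, was 0.94 lower with IL-6.

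Of the 12 genes for decay of *Tnf* mRNA, shedding of TNF and neighbors of *Tnf*, 11 were tested, and 4 were higher and 6 lower after IL-4. *Zfp36* (tristetraprolin), which binds *Tnf* mRNA and promotes its decay, was at 102 to 110 normalized CPM in control and 172 to 182 in IL-4. IL-6 raised *Zfp36* by 0.75 on IL-4 (SE 0.058, adjusted p = 1.4e-08), to 286 to 306, and by 1.38 on IL-13 (SE 0.059, adjusted p = 1.3e-11). With IL-13 alone *Zfp36* was at 123 to 132. Its relatives *Zfp36l1* and *Zfp36l2* were 0.56 and 0.41 lower with IL-6 on IL-4. *Hnrnpd*, another protein that binds such mRNAs, rose by 1.00 after IL-4. *Adam17*, the protease that sheds TNF, fell by 1.04 after IL-4 and by 0.19 more with IL-6. Its inhibitor *Timp3* was at 16.4 to 21.1 normalized CPM in control and at most 0.271 in all other libraries, and *Ltb*, next to *Tnf*, was at 0.561 to 1.83 in control and at most 0.412 elsewhere. The stromal and B cell markers described above were high in the same control libraries, and their part in the levels of *Timp3* and *Ltb* was not tested.

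Of 30 textbook NF-κB targets, 25 were tested, with 7 higher and 12 lower after IL-4 and 4 higher and 5 lower with IL-6 on IL-4. *Lcn2*, an iron-binding protein of granulocytes and activated macrophages, was at 30.6 to 33.8 normalized CPM in control and at most 0.556 elsewhere, and *Il12b* at 0.942 to 1.35 in control and at most 0.116 elsewhere. *Vcam1*, an adhesion molecule, fell by 5.74 after IL-4 (SE 0.16, adjusted p = 2.6e-14), and *Il1a* fell by 3.31 (SE 0.48, adjusted p = 1.0e-05). *Il1a* was at 8.70, 7.70 and 7.01 normalized CPM in control and 0.482, 0.498 and 1.36 with IL-4, and without IL-4 replicate 3, which stood apart, it fell by 3.93 (adjusted p = 2.1e-05). The same control libraries carried the markers of other cells, and their part in these falls was not tested. Away from the control, *Icam1*, an adhesion molecule for leukocytes, rose with IL-6 by 1.71 on IL-4 (SE 0.10, adjusted p = 3.7e-10), from 9.96 to 10.6 normalized CPM to 28.3 to 37.4. *Ccl4*, a chemokine, rose by 1.07 on IL-4 and by 2.15 on IL-13. *Cd83* fell by 2.44 on IL-4 and by 1.49 on IL-13, and *Plau*, the urokinase gene, rose by 2.51 after IL-4 and fell by 1.58 with IL-6.

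The named genes (gene models left out) with a profile most like that of a member were sought by Pearson's r of log2 CPM over the 15 libraries. The points share 5 groups, so r follows the group means, and it is given as a description only. *Pou2f2* was nearest to *Nfkbiz* (r = 0.989), *Adam10* to *Rel* (r = 0.985), *Sirpb1b* to *Nfkbie* (r = 0.983), and *Zc3h12a* to *Nfkb1* (r = 0.964). *Cxcl16* was nearest both to *Relb* (r = 0.970) and to *Nfkbia* (r = 0.968), *Icam1* to *Nfkb2* (r = 0.945), *Fbxw17* to *Tnf* (r = 0.944) and *Rbm25* to *Tnfaip3* (r = 0.912). *Rela*, with the narrowest range, had its nearest gene, *Camkmt*, at r = 0.845. Between members, r was 0.955 for *Relb* with *Nfkbiz*, 0.926 for *Relb* with *Nfkbia* and 0.917 for *Nfkbia* with *Nfkbie*, and -0.882 for *Nfkb1* with *Nfkbie*.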

How the data were processed

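RNAseq libraries of BMDMs in 5 groups of 3 were analyzed. The authors deposited whole-number counts of reads per Ensembl gene and FPKM values, which were found to equal the count divided by a gene length and the summed count of the library. The submitters' processing notes name HISAT2 2.1.0, Bowtie2 2.2.3, TopHat2, CASAVA, DESeq2 and GRCm38, and the counting tool and its use of strand are not given in the sources used here. Groups were taken from the labels.

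Counts of all 15 libraries were fitted together with edgeR 4.0.16 in R 4.3.3 (filterByExpr with minimum count 10, TMM factors, estimateDisp, glmQLFit, glmQLFTest). The 8 pairwise contrasts and the IL-6 interaction were tested, with Benjamini-Hochberg adjustment over 13938 genes and a threshold of 0.05. Standard errors are the log2 fold change divided by the root of F. Normalized CPM used the TMM factors, and levels were compared between genes as FPKM, which depend on the gene lengths used. The members and lists were chosen with earlier results of these data known. The text names the members, up to 4 called genes with the largest change per pathway list after IL-4 and with IL-6 on IL-4, and the gene with the highest r for each member, with log2 CPM at a prior count of 2. The search for the highest r left out genes without a symbol and gene models, such as those named Gm or Rik. The alternatives were DESeq2 1.42.0, upper-quartile factors, library totals, no filter, a CPM of at least 1 in 3 libraries, the compared groups alone, limma-voom (limma 3.58.1), a replicate block and the omission of each library, 23 in all.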

Additional observations from a re-analysis of the deposited data

Results flagged for a closer look

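A difference between the IL-6 effects with IL-4 and with IL-13, tested with the interaction contrast in edgeR's quasi-likelihood fit, was found for 3 of the 10 members and for 9 of the pathway genes named above, against 7.64% of all tested genes. Of all 81 tested pathway genes 17 were called (5 higher, 12 lower). The named genes were chosen partly for a large change with IL-6 on IL-4, which is 1 side of this contrast, so their number is not read against the background. For the members the difference was -0.61 on the log2 scale for *Rel* (adjusted p = 0.037), -0.59 for *Nfkbie* (adjusted p = 0.024) and 0.51 for *Tnfaip3* (adjusted p = 0.0097).

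*Il1r1* rose more with IL-6 on IL-4 than on IL-13 (3.50 against 1.52, difference 1.98, adjusted p = 4.6e-05), as did *Icam1* (1.71 against 1.21, difference 0.51, adjusted p = 0.031) and *Tax1bp1* (0.37 against 0.09, difference 0.28, adjusted p = 0.024). *Ccl4* (1.07 against 2.15, difference -1.08, adjusted p = 0.00099) and *Zfp36* (0.75 against 1.38, difference -0.63, adjusted p = 8.1e-05) rose less on IL-4. *Cd83* (-2.44 against -1.49, difference -0.95, adjusted p = 0.022) and *Nfkbid* (-1.82 against -0.97, difference -0.85, adjusted p = 0.0015) fell more on IL-4. *Zfp36l1* gave -0.56 against 0.41 (difference -0.98, adjusted p = 0.0056), where the value on IL-13 was called (adjusted p = 0.043) but fell to 0.28 without IL-13 replicate 1 (adjusted p = 0.19) and 0.31 without IL-13/IL-6 replicate 2 (adjusted p = 0.20), and most alternatives did not call it. *Ikbke* gave -0.43 against 0.10 (difference -0.53, adjusted p = 0.0081).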

How the results depend on the processing

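Of the 90 log2 fold changes of members, 59 were called, 46 of them under all 23 alternatives. The other 13 lost the call in at least 1 alternative, 6 were called only under an alternative, and 25 were called nowhere. The count for IL-4 over control was 7 throughout. Leaving out each library in turn gave, with IL-6 on IL-4, 5 to 7 members called and 2 to 3 higher, with IL-6 on IL-13 2 to 5 called and 0 to 2 lower, for IL-13 over control 1 to 2 higher, for IL-13/IL-6 over control 0 to 2 higher, for IL-4 over IL-13 3 to 6 lower, and for the interaction 1 to 3 called and 0 to 2 lower. Over all tested genes the same fits called 4559 to 5727 with IL-6 on IL-4 (2171 to 2980 higher). With IL-6 on IL-13 they called 2902 to 4167 (1574 to 2224 lower). Genes above control numbered 3703 to 4640 with IL-13 and 4099 to 4921 with IL-13/IL-6. IL-4 over IL-13 had 644 to 1623 genes lower, and the interaction 805 to 1405 called (489 to 798 lower). With IL-6 on IL-4, a fit of the compared groups alone gave 5 called (4355 of 12671 tested genes), and upper-quartile factors, library totals, no filter and the compared groups alone gave 2 higher each. In that order, these settings had 2073, 2008, 2650 and 1991 of all tested genes higher. Without a filter, IL-13 over control gave 2 higher and IL-6 on IL-13 gave 3 called and 1 lower. Of the 25254 genes tested there, 4537 were higher in the former and 3641 called (1798 lower) in the latter. IL-13/IL-6 over control had 0 higher with upper-quartile factors and with library totals (4086 and 3780 of all tested genes). The interaction had 1 lower with library totals and with the compared groups alone (668 and 519 of all tested genes). Library totals moved the median of all tested genes by up to -0.15 (IL-4/IL-6 over control).
Signs turned only for differences near 0 that were not called. With upper-quartile factors these were *Tnfaip3* after IL-4 (0.0013 over control), *Rela* with IL-6 on IL-4 (-0.044), *Nfkb1* and *Nfkbia* with IL-6 on IL-13 (-0.024 and -0.0056) and *Nfkb2* in the interaction (-0.031). With library totals they were *Rela* with IL-6 on IL-4 (-0.055), *Nfkb1*, *Rela* and *Nfkbia* with IL-6 on IL-13 (-0.057, -0.020 and -0.036), *Rela* in IL-13/IL-6 over control (-0.016) and *Nfkb2* in the interaction (-0.012). Without a filter they were *Tnfaip3* after IL-4 (0.061), *Nfkb1* in IL-13 and in IL-13/IL-6 over control (0.017 and 0.045), *Rela* in IL-4/IL-6 over control (0.0021) and *Nfkb2* in the interaction (-0.024). With the compared groups alone *Tnfaip3* after IL-4 gave 0.023. Leave-one-out ranges that crossed 0 were, over control, -0.068 to 0.046 (*Tnfaip3*, IL-4), -0.23 to 0.010 (*Tnf*, IL-4), -0.055 to 0.035 (*Nfkb1*, IL-13) and -0.056 to 0.025 (*Nfkb1*, IL-13/IL-6). With IL-6 on IL-13 they were -0.037 to 0.031 (*Nfkb1*), -0.023 to 0.088 (*Rela*), -0.034 to 0.086 (*Nfkbia*) and -0.097 to 0.014 (*Tnfaip3*). With IL-6 on IL-4 they were -0.0023 to 0.048 (*Rela*) and -0.097 to 0.00095 (*Relb*), in IL-4 over IL-13 -0.036 to 0.22 (*Rel*), and in the interaction -0.088 to 0.12 (*Nfkb2*) and -0.066 to 0.045 (*Rela*). The cause of these changes was not tested.
Libraries that share a replicate number did not deviate together more than others (r of deviations from the group means -0.28 to 0.16, against -0.35 to 0.39 for other pairs). Because the other pairs spread so widely, this check cannot exclude a small effect shared by replicate number. How the numbers were assigned is not given in the sources used here. With a replicate block 3 of the 59 calls were lost, *Nfkbia* with IL-6 on IL-4 (-0.24, adjusted p = 0.056), *Nfkbie* in IL-13 over control (-0.25, adjusted p = 0.055) and *Relb* with IL-6 on IL-13 (0.26, adjusted p = 0.069), and 2 of 15 libraries correlated best with their own number.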
